A study of Sus scrofa with 2 samples.

Results

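The genes described here make the deoxynucleotides of a dividing cell and join them into DNA. The 9 genes are PCNA, FEN1, TYMS, RRM1, RRM2, POLA1, PRIM1, RFC2 and POLD3. They were chosen by name, with earlier results of these data known. All 9 were found by symbol among the 28155 genes of the count tables. They were measured by single-cell RNA sequencing in adipose-derived stem cells (ADSCs), fibroblast-like progenitors obtained by digesting fat and culturing what adheres. The cells came from chest fat of healthy Bama miniature pigs and had been grown for 3 generations within 14 days before freezing. The labels give 1 untreated group of 2 libraries, library 1 and library 2, and do not say whether these came from separate animals or cultures. The p-values therefore measure only how differences between groups of cells vary between these libraries. This spread may be technical, and its estimate for a gene borrows from all genes tested, by an amount that differs between genes. The p-values of different genes are therefore not on an equal footing.

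DNA is copied in S phase by a fork of cooperating enzymes. The polymerase alpha-primase complex lays down short primers, a clamp loader places the ring-shaped clamp PCNA on them, and polymerases held by the clamp extend them, while on the lagging strand FEN1 trims the flaps between fragments before ligation. The building blocks come from ribonucleotide reductase, which turns ribonucleotides into deoxyribonucleotides, and from thymidylate synthase, which makes the thymine nucleotide. In mammalian cells most of these genes are under the control of E2F factors and are transcribed around the start of S phase, and the reductase subunit RRM2 is the one that limits the enzyme through the cycle.

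Barcodes with at least 5000 unique molecular identifiers (UMIs, tags that count each captured transcript once) were taken as cells. Library 1 held 9581 such cells with a median of 21132 UMIs, and library 2 held 11598 with a median of 20150. The libraries shared 32 of these barcodes. Stromal markers marked the cells as labelled: 9 of 10 reached 10 CPM (UMIs of a gene per 1000000 UMIs of all genes) in each library, with COL1A2, a type I collagen chain, at 2075 and 3034 CPM. Of the other cell types, PECAM1 of endothelium (11.4 and 14.97 CPM) and CSPG4 of mural cells (13.0 and 16.4 CPM) led their lists, and the summed fat cell markers stayed at 0.879 and 0.815 CPM.

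Cells were then sorted by genes other than the 9. Random thinning brought every cell down to 5000 UMIs, after which the number of S markers with a UMI was counted among 14 genes (the MCM helicase, origin and fork genes such as CDC6, CDC45, GINS2 and CLSPN), as was the number of late-cycle genes among 15 (such as MKI67, TOP2A, CDK1, CCNB1 and PLK1, which peak toward mitosis). S-marker cells had at least 4 S markers and at most 1 late-cycle gene, and numbered 84 (0.877%) in library 1 and 142 (1.22%) in library 2. Dual-marker cells had at least 4 S markers and at least 3 late-cycle genes, and numbered 374 (3.90%) and 587 (5.06%). Late-marker cells had at least 3 late-cycle genes and at most 1 S marker, and numbered 2150 (22.4%) and 2538 (21.9%). Marker-low cells had no late-cycle gene and at most 1 S marker, and numbered 1646 (17.2%) and 2260 (19.5%). The remaining 55.6% and 52.3% of cells were in no class. The classes are ranges on a scale and not types: exactly 3 S markers were seen in 7.07% and 6.84% of cells, just outside the limit, and exactly 4 in 3.07% and 3.80%, just inside it. Median depth was 19735.5 and 24394.5 UMIs in S-marker cells, 26812 and 22808 in dual-marker cells, 21769 and 19969.5 in late-marker cells, and 19557.5 and 19971 in marker-low cells.

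The clamp and its partner FEN1 both had their highest levels in dual-marker cells and their lowest in marker-low cells. PCNA, the sliding clamp, lies at chr17:14137746-14142584 of the pig assembly Sscrofa11.1. It was at 146 and 134 CPM in S-marker cells of libraries 1 and 2, at 234 and 204 CPM in dual-marker cells, at 80.9 and 57.9 CPM in late-marker cells, and at 28.6 and 16.7 CPM in marker-low cells. The libraries did not overlap between any of the 4 classes, and dual-marker cells were the highest. FEN1, the flap endonuclease, at chr2:9752004-9756863, was at 38.4 and 34.4 CPM in S-marker cells, 48.8 and 45.8 in dual-marker cells, 18.9 and 15.6 in late-marker cells, and 3.77 and 2.88 CPM in marker-low cells. The order of its values was the same as that of PCNA, again with no overlap of the libraries. Its mean in S-marker cells was 10.95 times that in marker-low cells. The FEN1 value of S-marker cells in library 1 rests on 67 UMIs. Its exact Poisson interval there was 29.7-48.7 CPM and overlapped that of dual-marker cells, 44.5-53.5 CPM. In library 2 these intervals, 28.4-41.4 and 42.3-49.5 CPM, did not overlap. S-marker cells were not tested against dual-marker cells, so this step of FEN1 was not settled.

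The 2 subunits of ribonucleotide reductase had ranges of different width over the classes. RRM2, the small subunit, at chr3:126357198-126367145, was at 149 and 134 CPM in S-marker cells, 260.2 and 227 in dual-marker cells, 96.9 and 69.9 in late-marker cells, and 23.7 and 9.25 CPM in marker-low cells. Dual-marker cells held 14.8 times the mean level of marker-low cells, but the libraries differed in this range, with log2 fold changes of 3.38 in library 1 and 4.46 in library 2, and library 1 stood above library 2 in marker-low cells by 2.56-fold. RRM1, the large subunit, at chr9:6026151-6065211, was at 36.1 and 42.1 CPM in S-marker cells, 48.9 and 71.8 in dual-marker cells, 37.6 and 48.6 in late-marker cells, and 16.9 and 19.0 CPM in marker-low cells. Its S-marker and late-marker values overlapped, and its range from dual-marker to marker-low cells was 3.36-fold.

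TYMS, thymidylate synthase, was higher in both classes with late-cycle genes than in S-marker cells. It lies at chr6:105642730-105660279 and was at 150.1 and 139.6 CPM in S-marker cells, 223 and 193 in dual-marker cells, 232 and 195 in late-marker cells, and 114 and 98.0 CPM in marker-low cells. Dual-marker and late-marker cells overlapped at the top, S-marker cells came below both, and marker-low cells lowest, so that the whole range was 2.02-fold. RFC2, a subunit of the clamp loader, at chr3:11373489-11392690, was at 154 and 165 CPM in S-marker cells, 197 and 197 in dual-marker cells, 143 and 143 in late-marker cells, and 73.3 and 70.4 CPM in marker-low cells. Its range from dual-marker to marker-low cells was 2.74-fold, between those of TYMS and RRM1. The order of its values differed from that of TYMS, with S-marker cells above late-marker cells and no overlap between neighbours. In library 1 this step was within counting error. The exact Poisson interval of RFC2 in S-marker cells there was 135.7-173.1 CPM, which contains the late-marker value. The test of S-marker against late-marker cells below did not separate them for RFC2 (adjusted p = 0.258, edgeR quasi-likelihood), so their order was not settled.

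The primer-making and polymerase delta genes were higher in both classes with S markers than in late-marker cells. POLA1, the catalytic subunit of polymerase alpha, at chrX:20756674-21064265, was at 36.1 and 48.6 CPM in S-marker cells, 39.1 and 46.6 in dual-marker cells, 11.7 and 11.3 in late-marker cells, and 9.57 and 5.79 CPM in marker-low cells. S-marker and dual-marker cells overlapped, and both stood more than 3-fold above late-marker cells (3.69-fold for S-marker and 3.73-fold for dual-marker cells, of means). PRIM1, the primase subunit that starts each primer, at chr5:22064248-22089441, was at 48.7 and 60.9 CPM in S-marker cells, 65.5 and 65.5 in dual-marker cells, 25.5 and 25.2 in late-marker cells, and 10.6 and 9.56 CPM in marker-low cells. POLD3, an accessory subunit of polymerase delta, at chr9:8906491-8956845, was at 48.7 and 63.7 CPM in S-marker cells, 54.5 and 67.3 in dual-marker cells, 23.7 and 28.1 in late-marker cells, and 14.6 and 15.9 CPM in marker-low cells. In both genes the S-marker and dual-marker libraries stood above the late-marker libraries without overlap. No other gene of the RefSeq table overlaps any of the 9.

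**Figure D1:**
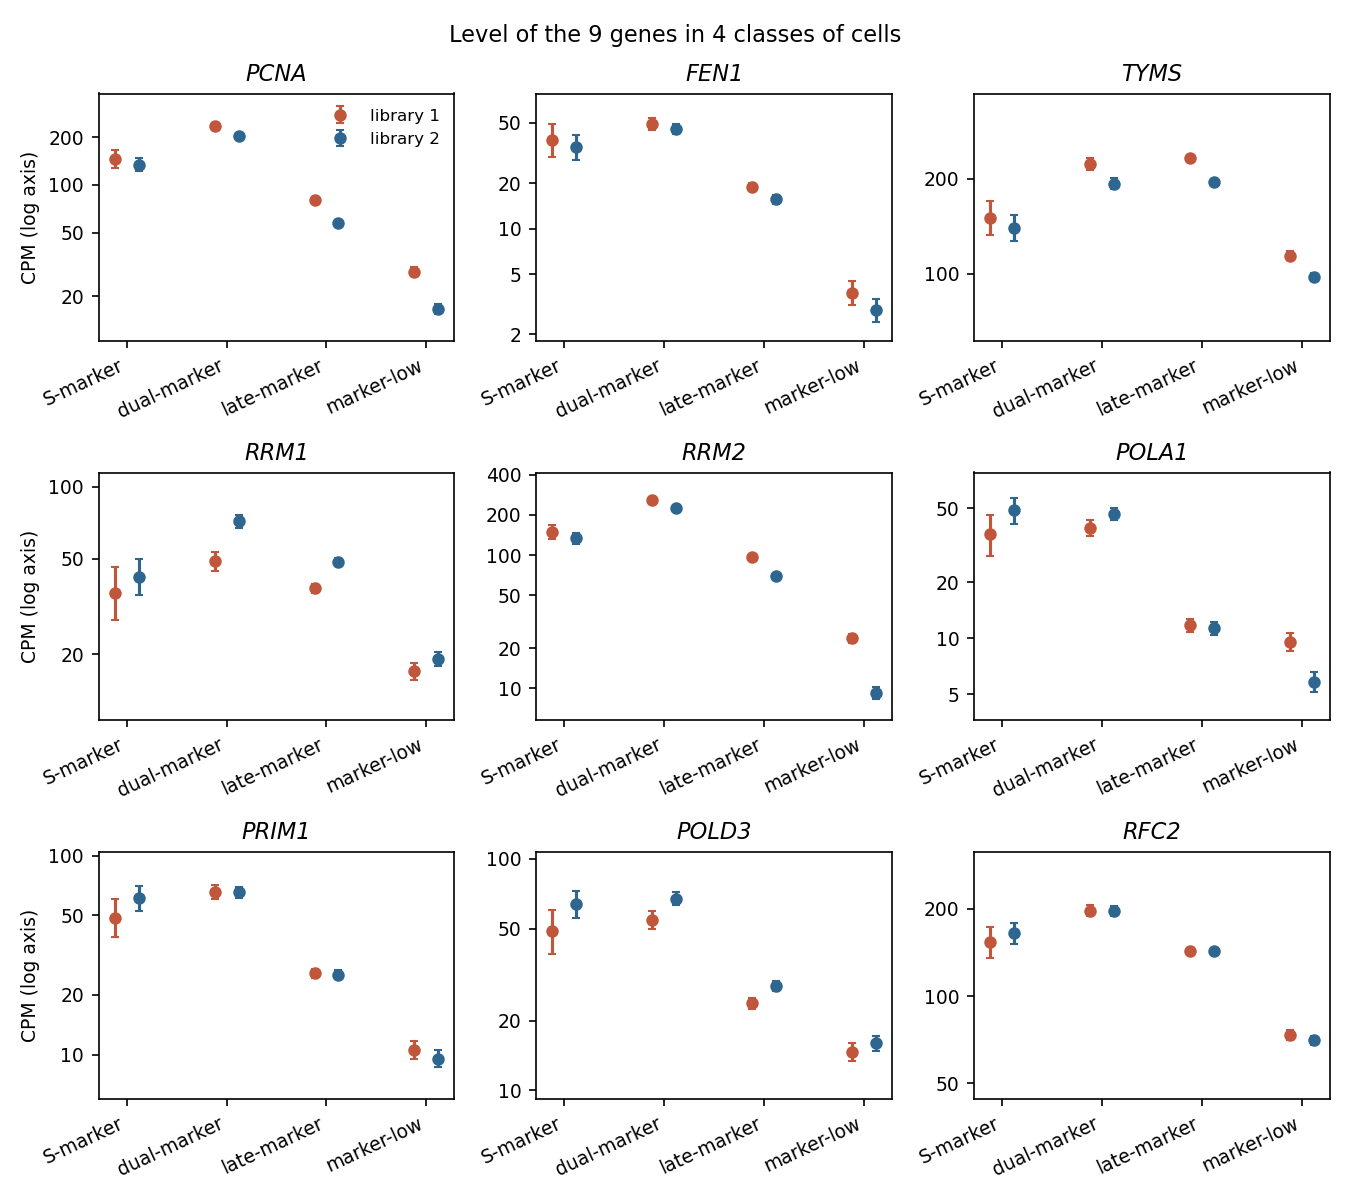
Level of each gene in CPM (log axis, scaled per gene) in S-marker, dual-marker, late-marker and marker-low cells of libraries 1 and 2; points are the summed counts of a class and bars are exact Poisson 95% intervals, which cover counting error only. Marker-low cells are lowest for all 9 genes, and TYMS alone has its highest mean in late-marker cells.

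Tests across all genes set the classes against each other, with the library as a block. The S markers are themselves genes of DNA copying, and the 9 genes and the classes were chosen with earlier results of these data known. A rise of the 9 with S markers was therefore likely beforehand, and the counts called describe it without being independent evidence. In S-marker against marker-low cells 8 of the 9 genes rose, against a background of 5.58% of 15386 genes higher and 4.39% lower. Here and below a gene is called, and said to have risen or fallen, where its adjusted p is under 0.05, its log2 fold change is 0.5 or more in size and libraries 1 and 2 share its sign. FEN1 rose by a log2 fold change of 3.37 ± 0.15 SE (adjusted p = 9.93e-13, edgeR quasi-likelihood, n = 2 libraries) and RRM2 by 3.11 ± 0.42 (adjusted p = 0.0250). PCNA rose by 2.59 ± 0.17, POLA1 by 2.45 ± 0.33, PRIM1 by 2.38 ± 0.12 and POLD3 by 1.79 ± 0.11. Library 2 gave the larger values for RRM2 (2.55 in library 1 and 3.74 in library 2) and POLA1 (1.81 and 2.95). RFC2 and RRM1 rose less, by 1.05 ± 0.07 and 1.00 ± 0.12. TYMS was not called: its adjusted p was 0.000699, but its log2 fold change of 0.36 ± 0.07 was under the limit. The median over the 9 was 2.38, against -0.061 over all genes tested. RRM1 was not called without the library as a block (adjusted p = 0.0732), and POLA1 was not called when 3 S markers sufficed (adjusted p = 0.0546). Over all alternatives the adjusted p ranged between 9.42e-13 and 0.0732 for RRM1 and between 7.33e-43 and 0.0546 for POLA1.

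In dual-marker against marker-low cells all 9 genes rose, against a background of 11.5% of genes higher and 11.9% lower. RRM2 rose by 3.87 ± 0.33 (3.38 in library 1 and 4.46 in library 2) and FEN1 by 3.73 ± 0.10 (3.62 and 3.82), so that FEN1 was ahead in library 1 and RRM2 in library 2. The next values were those of PCNA (3.20 ± 0.13), PRIM1 (2.59 ± 0.09) and POLA1 (2.41 ± 0.24). POLD3 at 1.87 ± 0.08, RRM1 at 1.63 ± 0.08, RFC2 at 1.34 ± 0.05 and TYMS at 0.85 ± 0.05 followed. These 9 calls held under all 11 alternatives that gave a test.

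In late-marker against marker-low cells 8 of 9 rose, against a background of 7.09% higher and 8.72% lower. The summed S markers differed between these classes too, at 230 and 224 CPM against 93.4 and 76.0 CPM. Their part in the changes was not tested. RRM2 (2.35 ± 0.32) and FEN1 (2.32 ± 0.10) were again ahead of PCNA (1.57 ± 0.13), PRIM1 (1.28 ± 0.08), RRM1 (1.19 ± 0.07), TYMS (0.95 ± 0.05), RFC2 (0.93 ± 0.05) and POLD3 (0.70 ± 0.07). POLA1 was not called, at 0.55 ± 0.23 (adjusted p = 0.131), with 0.25 in library 1 and 0.87 in library 2. It was called with no filter on low counts, with 5 S markers required, and with S markers that leave out the MCM genes (adjusted p between 1.48e-06 and 0.798 over all alternatives). POLD3 lost its call without the block (adjusted p = 0.0833) and, at a log2 fold change of 0.47, with cells thinned to 10000 UMIs.

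S-marker cells were also set directly against late-marker cells. Of the 9 genes 5 were higher in S-marker cells and 1 was lower, against a background of 2.79% higher and 2.81% lower among all genes. POLA1 rose most, by 1.90 ± 0.31 (adjusted p = 0.0232), followed by PRIM1 (1.11 ± 0.11), POLD3 (1.09 ± 0.10), FEN1 (1.05 ± 0.13) and PCNA (1.01 ± 0.15). TYMS fell by 0.59 ± 0.07 on the log2 scale (adjusted p = 1.78e-06), in both libraries. RRM2 at 0.76 ± 0.36 (adjusted p = 0.359), RFC2 at 0.13 ± 0.07 (adjusted p = 0.258) and RRM1 at -0.19 ± 0.11 (adjusted p = 0.339) were not called, which does not show that they were alike in the 2 classes. Without the library as a block 2 of the 9, POLA1 and PRIM1, were still called higher and 0 lower, with adjusted p for PCNA, FEN1, POLD3 and TYMS between 0.0585 and 0.277. When 3 S markers sufficed POLA1 was not called (1.64 ± 0.41, adjusted p = 0.111).

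**Figure D2:**
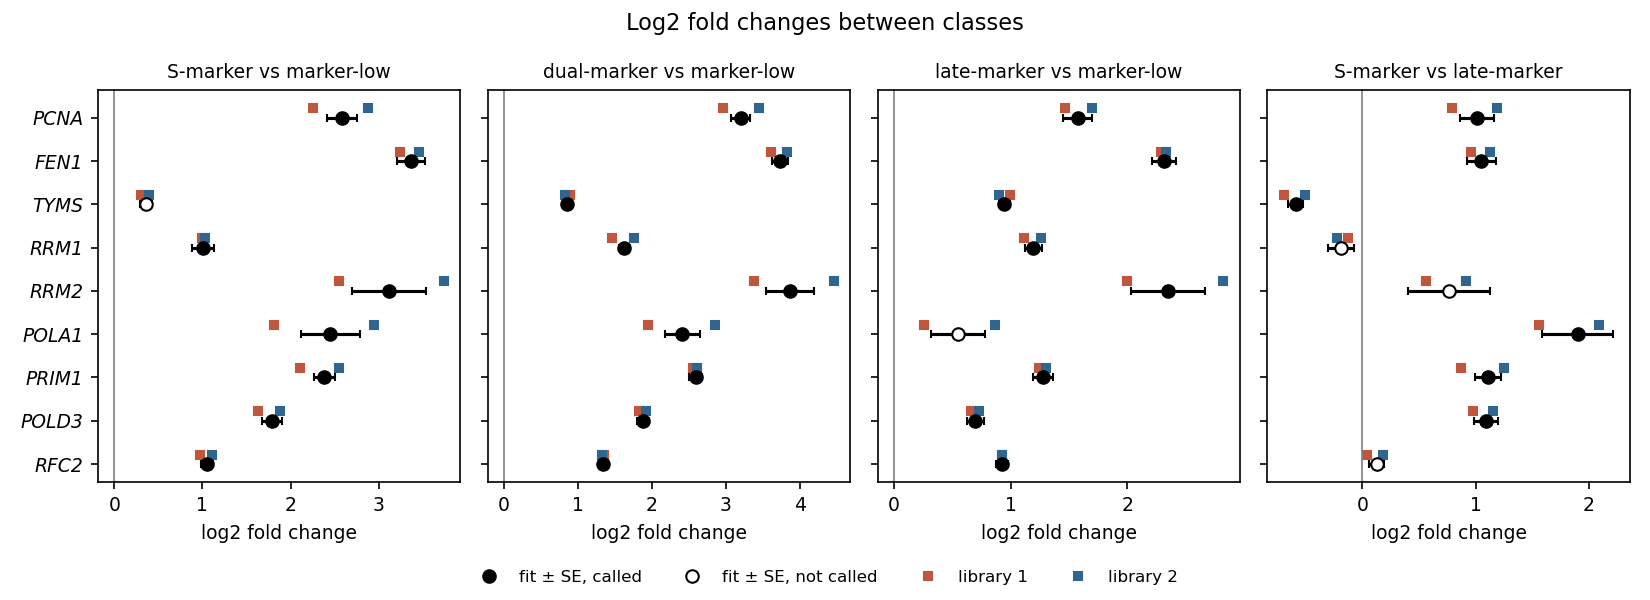
Log2 fold change of each gene in the 4 comparisons of classes; circles are edgeR estimates with bars of 1 SE, filled where called, and squares are the values within each library. TYMS is the only gene called lower in S-marker than in late-marker cells, and POLA1 is the furthest to the right there, at 1.90.

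The levels were also read along each marker scale, bin by bin. With the number of S markers, from 0 to 5 or more, RRM2 climbed in library 1 through 37.7, 69.7, 115.5, 171.5, 221.5 and 266 CPM, and in library 2 through 20.4, 49.3, 91.1, 150.8, 193 and 227 CPM. PCNA had 37.1 CPM with no S marker and 240.5 CPM with 5 or more in library 1, and 23.2 and 207 CPM in the same bins of library 2. TYMS changed little over the same bins and reached its plateau early, at 156, 180, 204, 202, 211 and 209.7 CPM in library 1 and 129, 156, 170.5, 173, 183 and 181 CPM in library 2. POLA1 kept climbing to the last bin, with 33.1 and 41.3 CPM at 4 S markers and 50.5 and 52.4 CPM at 5 or more. PCNA, FEN1, RRM1, RRM2, PRIM1 and POLD3 were also higher in the last bin than at 4 S markers in both libraries. RFC2 was higher there in library 1 (185 and 196 CPM) but not in library 2 (189.6 and 189.3 CPM).

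The late-cycle scale was read among cells with 0 or 1 S markers. This limit did not hold S markers level. Their summed level was 230 and 224 CPM in late-marker cells and 93.4 and 76.0 CPM in marker-low cells. The part of this difference in the values below was not tested. TYMS climbed from 114 and 98.0 CPM with no late-cycle gene to 249.9 and 205 CPM with 9 or more, in 522 and 691 cells. RRM1 climbed from 16.9 and 19.0 to 44.9 and 58.7 CPM, and RFC2 from 73.3 and 70.4 to 157 and 161 CPM. POLA1 differed between the libraries here: it lay between 9.57 and 12.1 CPM across all 5 bins in library 1, and climbed through 5.79, 6.81, 9.70, 11.2 and 13.1 CPM in library 2. Over all cells, whatever their S markers, PCNA was highest at 6 to 8 late-cycle genes (132.9 and 110.1 CPM) and lower at 9 or more (120.1 and 93.9 CPM), and FEN1 had the same shape (32.7 and 28.9, then 24.8 and 22.6 CPM). POLA1, PRIM1 and POLD3 were also lower at 9 or more than at 6 to 8 in both libraries, whereas RRM1, TYMS and RFC2 had no such drop in either. Among cells with 0 or 1 S markers the drop of PCNA was not shared. Between the same 2 bins PCNA went from 93.6 to 90.2 CPM in library 1 and from 63.0 to 70.6 CPM in library 2. FEN1 went from 25.2 to 20.2 CPM and from 19.4 to 18.5 CPM there.

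**Figure D3:**
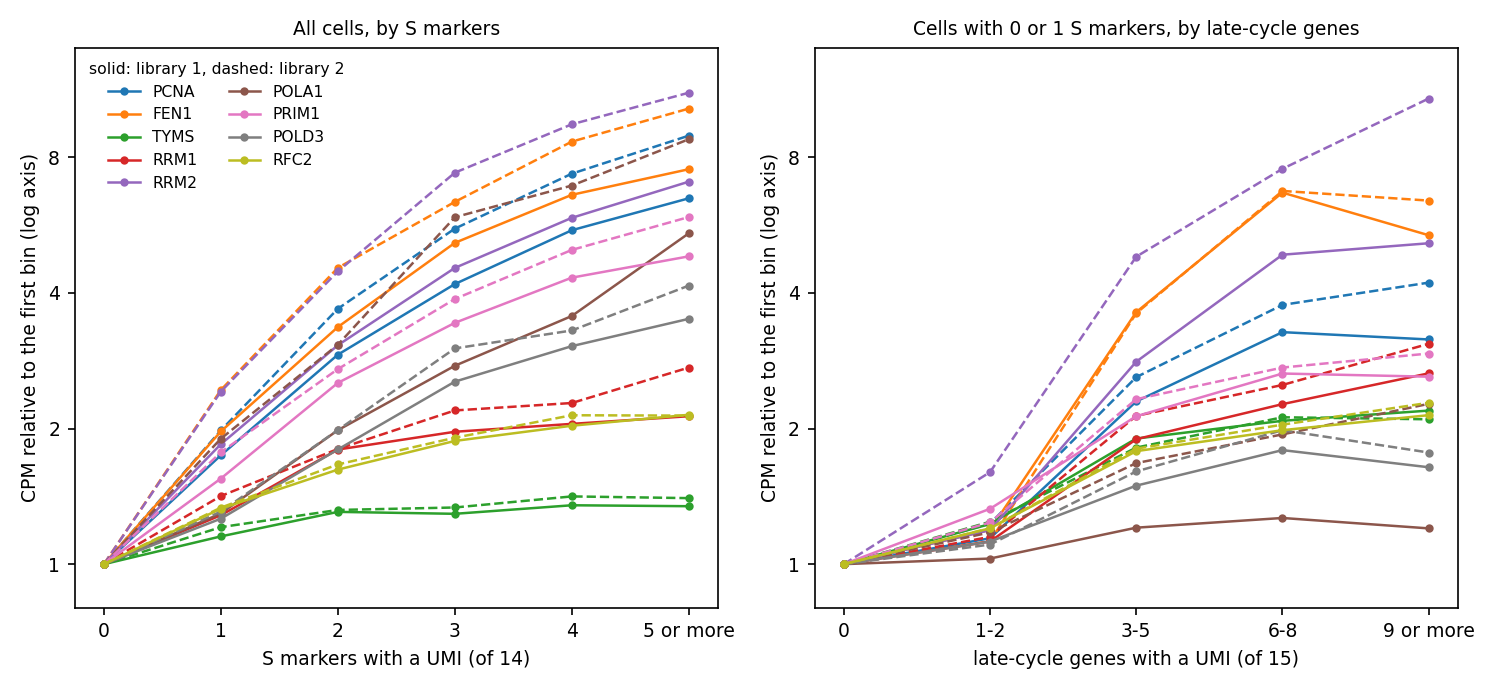
CPM of each gene relative to the first bin (log axis) by the number of S markers with a UMI in all cells (left) and by the number of late-cycle genes with a UMI in cells with 0 or 1 S markers (right), solid for library 1 and dashed for library 2. TYMS is the lowest line on the left and POLA1 of library 1 the lowest on the right.

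In single cells most of these transcripts were sparse. At 5000 UMIs per cell TYMS was seen in 52.8% (95% exact binomial interval 51.8-53.8) and 49.1% (48.2-50.03) of cells, RFC2 in 41.9% and 41.9%, PCNA in 24.8% and 19.7%, and RRM2 in 24.9% and 18.5%. POLD3 was seen in 10.6% and 13.2%, RRM1 in 13.3% and 15.9%, PRIM1 in 10.1% and 10.0%, FEN1 in 6.48% and 5.55%, and POLA1 in 6.31% and 5.91%. These shares follow depth: without thinning, RRM2 was seen in 53.2% and 41.0% of cells. RRM2 was seen in 46.4% (35.5-57.6) and 37.3% (29.4-45.8) of S-marker cells, in 66.0% (61.0-70.8) and 59.5% (55.4-63.5) of dual-marker cells, in 32.2% and 23.1% of late-marker cells, and in 10.3% and 4.29% of marker-low cells. FEN1 was the scarcest gene in marker-low cells, with a UMI in 25 of 1646 (1.52%) and 17 of 2260 (0.752%).

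Free RNA can give a cell UMIs of genes that it does not express, and no cell type in these cultures is known to lack these genes. Barcodes with fewer than 5000 UMIs held RRM2 at 87.4 and 77.4 CPM, above the 23.7 and 9.25 CPM of marker-low cells. Each of these barcodes held at least 500 UMIs, and whether they were cells or free RNA was not tested. The part of free RNA in the shares of marker-low cells was not tested. Counting intervals cover counting error only.

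**Figure D4:**
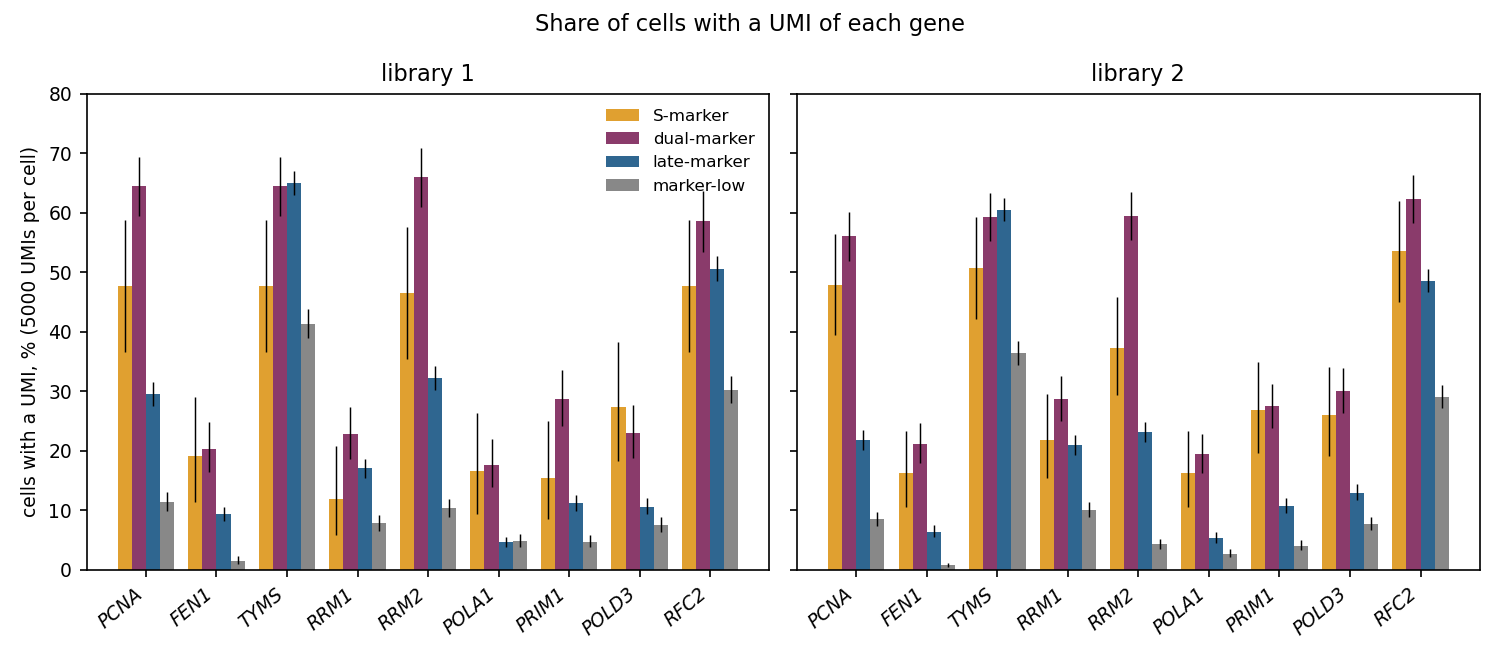
Percent of cells with at least 1 UMI of each gene after thinning to 5000 UMIs, in S-marker, dual-marker, late-marker and marker-low cells of each library; bars start at 0 and lines are exact binomial 95% intervals. RRM2 and PCNA differ widely between dual-marker and marker-low cells, whereas TYMS was seen in 41.3% and 36.5% of marker-low cells.

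The ratio of variance to mean of UMIs over cells differed between the genes at equal depth, and it was not adjusted for their mean counts. RRM2 had the highest ratio of variance to mean of thinned UMIs, 1.55 and 1.64, where a value of 1 is what random sampling alone gives. PCNA followed with 1.46 and 1.40. TYMS had 1.24 and 1.17 and POLA1 1.19 and 1.18, while RRM1 (1.06 and 1.06) and POLD3 (1.04 and 1.10) were close to 1. Mean UMIs per cell were 0.843 and 0.735 for TYMS and 0.361 and 0.263 for RRM2. They were 0.147 and 0.178 for RRM1 and 0.0709 and 0.0664 for POLA1. The ratio depends on the mean too, so it does not rank genes of unlike means by their spread. A cell held up to 8 RRM2 UMIs in each library and up to 7 of PCNA. At least 5 of the 9 genes were seen together in 15.5% and 17.6% of S-marker cells, 27.3% and 28.1% of dual-marker cells, 5.30% and 4.06% of late-marker cells, and 0.425% and 0.221% of marker-low cells. None of the 9 was seen in 5.95% and 4.23% of S-marker cells, 1.07% and 0.681% of dual-marker cells, 7.26% and 8.59% of late-marker cells, and 26.1% and 32.9% of marker-low cells. No cell showed all 9 at this depth, and 4 and 3 cells showed 8.

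Dual-marker cells gave an outsized part of the transcripts of these genes. They made up 3.90% and 5.06% of cells and held 4.65% and 5.72% of all UMIs, but 14.8% and 20.5% of RRM2 UMIs, 14.3% and 19.6% of PCNA UMIs and 12.3% and 18.2% of POLA1 UMIs. Their part of TYMS UMIs was 5.85% and 7.36%, and of RRM1 UMIs 7.57% and 11.08%. Late-marker cells held 31.3% and 29.7% of TYMS UMIs with 23.9% and 22.8% of all UMIs, and 19.0% and 17.5% of POLA1 UMIs.

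Genes of the group were seen together unevenly. RRM2 had a UMI in 41.3% and 37.9% of cells with a PCNA UMI, and in 19.5% and 13.8% of cells without one. Across cells the correlation of log values was highest for this pair (Pearson 0.29 in library 1 and 0.30 in library 2), followed by FEN1 with RRM2 (0.17 and 0.19) and RRM2 with PRIM1 (0.16 and 0.18). Among the 36 pairs TYMS with POLA1 was the lowest, at 0.0055 and 0.016, and weak values in such sparse counts are no finding. Within late-marker cells RRM2 had a UMI in 40.2% and 33.6% of cells with PCNA and 28.9% and 20.2% of those without. The 2 reductase subunits were a looser pair than RRM2 and PCNA, at 0.067 and 0.104. RRM1 had lower counts than PCNA, and the part of this in the value was not tested.

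Sums over bins of cells carry less counting noise. Cells were binned by their numbers of S markers and late-cycle genes, which gave 37 bins of at least 50 cells over both libraries. The bins share libraries and are ordered by cycle genes, so high correlations arise among many such genes. PCNA and RRM2 had the most similar profiles (Pearson 0.987 of log2(CPM + 1)), followed by FEN1 with RRM2 (0.982) and PCNA with FEN1 (0.979), while POLA1 was closest to POLD3 (0.937). TYMS had its closest partner in RFC2 (0.808) and its lowest values with POLD3 (0.433) and POLA1 (0.363).

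Among 8047 other genes that averaged 10 CPM or more, the closest to PCNA were HAT1, a histone acetyltransferase (0.985), PGAM5 (0.983) and SNRPD3 (0.981). Close to FEN1 were LYAR and DTYMK, the thymidylate kinase gene (each 0.987). RRM2 was closest to SRSF7 (0.983), MCM10, an origin firing factor (0.979), and SNRPD3 (0.979). RRM1 was closest to DEK (0.981), KPNB1 (0.979) and the cohesin gene SMC3 (0.977). POLA1 was closest to MMS22L, a factor of damaged forks (0.963), WDR76 (0.959) and TIPIN, of the fork protection complex (0.951). PRIM1 was closest to TCF19 (0.986), HAT1 (0.985) and RFC4 (0.982), POLD3 to BARD1 (0.977), NOLC1 (0.976) and the maintenance methyltransferase gene DNMT1 (0.972), and RFC2 to RFC3 (0.987), GINS1 (0.986) and POLA2 (0.981). TYMS was closest to HMGN2, a nucleosome binding protein (0.966), DDX39A (0.961) and the kinetochore gene SPC24 (0.960). The median over the candidate genes was between 0.067 and 0.184.

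Between the libraries the 9 genes differed by less than 2-fold, and 1 library on each side allows no test. Over all cells PCNA had 76.4 CPM (75.2-77.6, exact Poisson 95% interval) in library 1 against 59.3 CPM (58.4-60.3) in library 2, RRM2 at 81.7 (80.5-83.0) and 63.2 CPM (62.2-64.2), and TYMS at 177 (175-179) and 149.8 CPM (148-151). RRM1 went the other way, at 30.0 (29.3-30.8) and 37.0 CPM (36.3-37.8), as did POLD3 at 24.4 (23.7-25.1) and 29.4 CPM (28.7-30.1). RFC2 (120.9 and 119.1 CPM), PRIM1 (25.3 and 24.4), FEN1 (15.5 and 13.8) and POLA1 (14.7 and 14.6 CPM) were closer. None of the 9 reached a 2-fold difference, against a background of 2.76% of 8032 genes at 10 CPM or more with such a difference toward library 1 and 0.411% with one toward library 2.

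The difference was not the same in each class. In marker-low cells library 1 exceeded library 2 by 2.56-fold for RRM2, 1.71-fold for PCNA and 1.65-fold for POLA1, but in S-marker cells by 1.11-fold for RRM2 and 1.09-fold for PCNA, with POLA1 at 0.743-fold. Beside this, the summed late-cycle genes in marker-low cells came to 154 CPM (library 1) and 131 CPM (library 2), and the summed S markers at 93.4 and 76.0 CPM. Their part in the difference was not tested. Across 8021 genes the ratio of library 1 to library 2 also fell with the gene's span (Spearman -0.43, across genes, which are not independent replicates), with a median log2 of 0.055 for genes under 10 kb, 0.0075 for 10 to 30 kb, -0.12 for 30 to 100 kb and -0.33 for 100 kb or more. The 3 genes under 10 kb, PCNA (4.84 kb), FEN1 (4.86 kb) and RRM2 (9.95 kb), were higher in library 1 (log2 ratios of 0.36, 0.17 and 0.37), and RRM1 (39.1 kb) and POLD3 (50.4 kb) lower (-0.30 and -0.27). Of the others, TYMS (17.6 kb) stood at 0.24, more than FEN1, while RFC2 (19.2 kb), PRIM1 (25.2 kb) and POLA1, the longest at 308 kb, stood at 0.021, 0.052 and 0.0072.

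**Figure D5:**
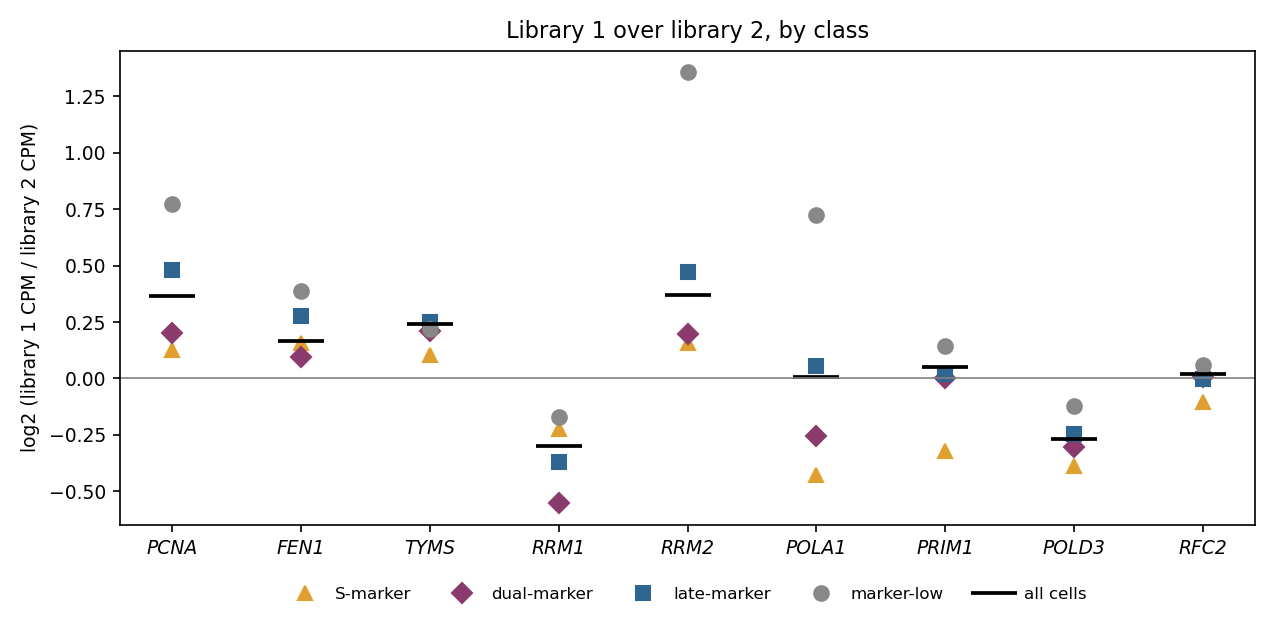
Log2 ratio of library 1 to library 2 CPM for each gene in all cells (bars) and in each of the 4 classes (symbols). Marker-low cells stand furthest above 0 for RRM2, PCNA and POLA1, and RRM1 and POLD3 lie below 0 in every class.

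Other genes of the pathway were read from a list of 47, all found. In S-marker against marker-low cells 31 rose and 2 fell, beside 5.58% and 4.39% of all genes (median log2 fold change 0.89, against -0.061). In dual-marker cells 34 rose and 3 fell, beside 11.5% and 11.9% of all genes (1.07, against -0.048). In late-marker cells 26 rose and 1 fell, beside 7.09% and 8.72% of all genes (0.59, against -0.018). In S-marker against late-marker cells 10 rose and 0 fell, beside 2.79% and 2.81% of all genes (0.24, against -0.037). The same shares apply to the counts of each group of genes below.

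Among 9 polymerase and primase genes 7 rose in S-marker against marker-low cells, led by POLE2 (3.40) and POLE (2.77) of the leading-strand polymerase epsilon and POLD1 (3.03), the catalytic subunit of polymerase delta. POLD4, the smallest delta subunit, fell in the same comparison: it was at 77.3 and 57.5 CPM in S-marker cells and 119 and 102 CPM in marker-low cells (log2 fold change -0.85), and it fell in dual-marker cells too (-1.10). POLE4 was not called (0.077). Against late-marker cells POLE2 (0.99), PRIM2, the partner of PRIM1 (0.94), and POLD2 (0.92) were higher in S-marker cells. All 6 clamp loader genes rose in S-marker against marker-low cells, led by ATAD5 (4.03), which unloads PCNA, RFC3 (2.44) and RFC5 (1.98). Against late-marker cells RFC4 (0.97) and ATAD5 (0.93) were higher, while RFC5 (0.36), RFC3 (0.33), RFC1 (0.16) and CHTF18 (-0.15) were not called.

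Of 8 genes of single-strand binding and the lagging strand 6 rose in S-marker against marker-low cells, led by the ligase LIG1 (2.55), the nuclease-helicase DNA2 (1.96) and RPA2 (1.88), and RNASEH2A (0.39) and RNASEH2C (0.18) were not called. LIG1 was the only one of the 8 called higher against late-marker cells (0.96), beside 2.79% of all genes. Of 9 genes of deoxynucleotide supply 4 rose and 1 fell in S-marker against marker-low cells, with TK1, thymidine kinase, at 2.43 and DCK, deoxycytidine kinase, at 1.73. SAMHD1, which breaks down deoxynucleotides, was at 26.9 and 29.2 CPM in S-marker cells and 34.5 and 43.6 CPM in marker-low cells (-0.61). NME1 (0.36), DUT (0.27), RRM2B (-0.23) and DCTD (-0.0093) were not called. RRM2B, the p53-regulated alternative to RRM2, fell in late-marker against marker-low cells (-0.67), at 6.82 and 7.28 CPM against 9.05 and 12.3 CPM. TK1, at 168 and 134 CPM in S-marker, 361 and 307 in dual-marker, 207 and 165 in late-marker and 30.6 and 21.9 CPM in marker-low cells, was not called in S-marker against late-marker cells, where its log2 fold change (-0.34) was under the limit.

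Of 15 one-carbon and de novo nucleotide synthesis genes 8 rose in S-marker against marker-low cells, led by SHMT1 (2.31), MTHFD1 (1.09) and CTPS1, CTP synthase (0.96). SHMT1, a folate enzyme, was sparse, at 2.29 and 6.77 CPM in S-marker cells and 1.08 and 0.865 CPM in marker-low cells, and its value was 0.97 in library 1 and 2.83 in library 2. In late-marker against marker-low cells 3 of the 15 rose, beside 7.09% of all genes. They were SHMT1 (2.40), MTHFD1 (0.59) and DHODH (0.56). Against late-marker cells CTPS1 (0.72), MTHFD2 (0.59) and MTHFD1 (0.50) were higher in S-marker cells. The summed stromal markers moved the other way, at 4545 and 5548 CPM in S-marker cells, 3795 and 4523 in dual-marker cells, 4844 and 6011 in late-marker cells, and 6133 and 7970 CPM in marker-low cells. CPM are shares of a cell's UMIs, and the part of this shift in the gene differences was not tested.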

How the data were processed

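Libraries were made with the Chromium Next GEM 3' v3.1 kit from polyadenylated RNA, per the labels' protocols. The deposited UMI counts per gene and barcode are whole numbers without normalization, written by Cell Ranger (version 7.0.0, per the file headers). The submitters' processing notes name Sscrofa11.1 as the build. Annotation, intronic reads and cell calling: not given in the sources used here. Reads are counted near transcript ends, so CPM are not divided by length and are compared between classes and not between genes.

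Barcodes under 5000 UMIs (2670 and 1358) were left out, and 206998220 and 244250668 UMIs remained. No doublets were called or removed; leaving out the 8% of cells with the most UMIs was an alternative. Of the 15 S markers 14 were analysed. A class needed 50 cells in each library. Full counts were summed per library and class (8 sums) and tested with edgeR 4.0.16 in R 4.3.3 (TMM, filterByExpr, robust quasi-likelihood F test). The library was a replicate block, since classes come from the same libraries. The fit had 3 residual degrees of freedom, and prior degrees of freedom between 0.249 and 17.7, depending on the gene. Benjamini-Hochberg adjustment was over all 15386 genes of each comparison. The fit was tested on simulated data. The named pathway genes are the 3 with the largest change among those called in a role group, and those not called where there are 5 or fewer. Genes alike are the 3 with the highest correlation. A gene that these rules name is not reported here. Gene positions are from the RefSeq table of Sscrofa11.1. The members, lists and classes were chosen with earlier results of these data known.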

Additional observations from a re-analysis of the deposited data

Results flagged for a closer look

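Barcodes with fewer than 5000 UMIs entered no comparison between classes, and UMIs of the 9 genes were present in them. In library 1 the 2670 such barcodes, with a median of 1399.5 UMIs, held the 9 genes at a summed 541 CPM (520.1-563.2), against 566 CPM in cells. In library 2 the 1358 barcodes, with a median of 1064.5 UMIs, held 525 CPM (494-557), against 511 CPM in cells. POLA1 was at 28.3 and 26.6 CPM there, against 14.7 and 14.6 CPM in cells.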

How the results depend on the processing

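The library served as a replicate block because every class was taken from the same libraries. Leaving out the replicate block, 349 genes rose and 77 fell in S-marker against marker-low cells (859 and 675 with it), 934 and 504 in dual-marker against marker-low cells (1773 and 1824), 529 and 179 in late-marker against marker-low cells (1091 and 1342), and 42 and 120 in S-marker against late-marker cells (430 and 433), where the members called were 2 higher and 0 lower in place of 5 and 1. Its removal changed no member's call in dual-marker against marker-low cells. With thinned counts tested in place of full counts, which hold fewer UMIs, 501 genes rose and 335 fell in S-marker against marker-low cells and 217 and 226 against late-marker cells. In late-marker against marker-low cells 894 genes fell by DESeq2 (version 1.42.0) and 873 with cells thinned to 10000 UMIs; the cause was not tested. RRM1 in S-marker against late-marker cells turned from -0.19 to 0.10 with cells thinned to 10000 UMIs, passing in neither, and the cause was not tested. S-marker comparisons could not be run with 5 S markers required or with S markers without the MCM genes, which left 35 and 41 such cells in library 1. The filter on genes and mitochondrial UMIs removed 0 cells. The median log2 ratio of library 1 to library 2 over the 9 genes was 0.052, and 0.11 as a mean of cell CPM. The median share of cells with a UMI over the 9 genes was 13.3% and 15.9% at 5000 UMIs, 23.6% and 29.0% at 10000, and 41.7% and 41.0% without thinning. Leaving out a library left values with no test, and calls require 1 sign in both libraries. S-marker values rest on 84 and 142 cells.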
